A study of Mus musculus with 26 samples.

Results

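The comparison described here set livers collected at CT12 against livers collected at CT0 in mice labelled as Bmal1 knockouts, so that the time of day differed and the genotype did not. It used 6 of the 26 samples of the series, 3 knockout livers at CT12 and 3 at CT0, each sequenced as 1 library of polyadenylated RNA, and they were chosen by the genotype and time in their titles. CT, circadian time, counts hours in constant conditions, and CT0 is the hour at which the lights had come on before the animals were moved into darkness. All animals were 8 weeks old and had spent 2 days in complete darkness before collection, after a period in a cycle of equal light and dark. Knockout was given in the protocol as restricted to the liver, with wild-type C57BL/6 mice as controls. Food was freely available during the light-dark cycle. The sources used here do not say which driver expressed the recombinase or which sex the animals were. For comparison, 3 control livers at CT12 and 3 at CT0 from the same experiment were used, and a separate experiment on Nr1d1 gave 2 knockout and 2 control livers at each of the same times. The protocol speaks of RNA from each liver and of knockout and wild-type mice in pairs, so replicates are separate animals, but which animals formed a pair is not stated.

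BMAL1, encoded by Arntl, pairs with CLOCK or NPAS2 and activates genes through E-box sequences in their regulatory DNA. Among those genes are its own repressors, the Per and Cry genes, and the nuclear receptors REV-ERBα and REV-ERBβ, which in turn repress Arntl, so that the circuit runs through a daily cycle. Liver cells also receive daily cues from outside, among them feeding, body temperature and adrenal glucocorticoids, which reach the nucleus through other transcription factors and can keep a gene changing over the day in a liver whose own clock is disrupted. A comparison of opposite times of day in livers without the activator addresses which day-night differences remain.

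Values are RPKM, reads scaled to transcript length and library depth, with 1 transcript per gene symbol. Of the genes measured, 11494 had a mean of at least 0.5 RPKM over the 6 knockout libraries and were tested. A gene was called when its Benjamini-Hochberg adjusted p from limma was under 0.05, and log2 differences, on log2(RPKM + 0.5), are CT12 minus CT0 with the standard error of the fit. This scale understates the change of genes near 0.5 RPKM. The smallest whole reads recovered for the transcripts kept, tested or not, summed to between 4.72 M and 6.53 M per knockout library. Within a group, the median standard deviation of a gene was 0.162 on the log2 scale in knockout livers at CT12 and 0.164 at CT0. Replicate 1 of the knockout CT0 livers stood farthest from its group, with a root mean square deviation of 0.256 over all tested genes, and its lipogenic transcripts were far above those of its group mates, as described with those genes.

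Arntl, the targeted gene, was present in every knockout library, at 4.37, 3.59 and 4.01 RPKM at CT12, against 5.91, 5.73 and 7.45 RPKM at CT0. In control livers it stood at 1.26, 0.68 and 1.21 RPKM at CT12, against 16.3, 15.7 and 15.7 RPKM at CT0. The knockout values at CT12 lay below all those at CT0, but the difference did not pass the test (log2 -0.61 ± 0.16, limma adjusted p = 0.0674). RPKM covers the whole transcript, so the deleted part cannot be seen, and RNA from liver cells that are not hepatocytes is included. The difference between times was smaller in knockout than in control livers by log2 2.82 ± 0.22, limma adjusted p = 0.000145 for knockout minus control.

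In knockout livers 243 genes were called, 2.11% of those tested, of which 117 were higher at CT12 (1.02% of the tested genes) and 126 lower (1.1%). Every one of the 243 had 3 CT12 values on 1 side of all 3 CT0 values, a pattern that 11.4% of all tested genes showed with CT12 above CT0 and 11.4% with CT12 below. The called differences had a median size of 0.772 on the log2 scale and a smallest size of 0.32, and 40 rises and 29 falls reached a size of 1. The rises were led by the lysophosphatidylcholine transporter Mfsd2a, the deubiquitinase Usp2, the heme synthesis enzyme Alas1, the cell cycle inhibitor Cdkn1a and the gluconeogenic enzyme Pck1. The falls were led by S100a8, Camp, S100a9 and Ltf, which encode proteins of neutrophils.

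How many genes were called depended on which libraries estimated the spread. The fit pooled the spread of all 12 libraries of the experiment. With the 6 knockout libraries alone, 22 genes were called, all of them among the 243. Leaving out single libraries gave between 52 and 238 calls, with 62 without replicate 3 of the knockout CT0 livers, 52 without replicate 1 and 91 without replicate 2 of the knockout CT12 livers, 152 without replicate 1 of the knockout CT0 livers and 145 without replicate 2 of the control CT0 livers. Without each of the 12 libraries in turn, 37 genes remained called throughout, 23 higher and 14 lower at CT12.

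The genes called in every one of these fits numbered 15, and they were picked out after their values were seen. The 10 that rose were Pck1, Zbtb16, Dio1, Herpud1, Il6ra, Elovl3, Yod1, Pfkfb2, Trp53inp2 and St3gal4. The 5 that fell were Grb7, St5, Serpinh1, Ptk6 and Mustn1. Il6ra, the ligand-binding subunit of the interleukin-6 receptor, stood in knockout livers at 8.96, 8.29 and 8.95 RPKM at CT12, against 2.43, 3.09 and 2.30 RPKM at CT0. Its CT12 values hardly varied and lay far above all CT0 values (log2 1.58 ± 0.15, limma adjusted p = 0.000684). Dio1, the deiodinase that turns thyroxine into its active form, stood at 12.4, 19.1 and 15.5 RPKM at CT12, against 3.90, 3.90 and 4.19 RPKM at CT0, again with no overlap (log2 1.83 ± 0.16, limma adjusted p = 0.000474). Herpud1, a component of protein degradation at the endoplasmic reticulum, stood at 153, 119 and 204 RPKM at CT12, against 54.8, 50.9 and 46.2 RPKM at CT0. Each Herpud1 value at CT12 exceeded each at CT0 by a wide margin (log2 1.61 ± 0.20, limma adjusted p = 0.0034). The zinc finger transcription factor Zbtb16 stood at 12.6, 9.68 and 11.2 RPKM at CT12, against 2.79, 2.18 and 2.79 RPKM at CT0 (log2 1.92 ± 0.25, limma adjusted p = 0.0046).

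Of the falls in that set, Mustn1, known from the musculoskeletal system, stood at 0.943, 0.898 and 1.18 RPKM at CT12, against 3.36, 3.52 and 3.26 RPKM at CT0. Both groups were tight and well apart (log2 -1.37 ± 0.13, limma adjusted p = 0.000684). Serpinh1, the collagen chaperone HSP47, stood at 2.21, 2.17 and 2.46 RPKM at CT12, against 5.63, 5.15 and 5.90 RPKM at CT0 (log2 -1.13 ± 0.13, limma adjusted p = 0.002). The adaptor protein gene Grb7 stood at 20.1, 22.9 and 20.5 RPKM at CT12, against 36.1, 41.4 and 40.8 RPKM at CT0, so that its CT12 livers were all lower than its CT0 livers (log2 -0.88 ± 0.11, limma adjusted p = 0.0034). The tyrosine kinase gene Ptk6 was weakly expressed, at 0.564, 0.45 and 0.417 RPKM at CT12, against 1.73, 2.11 and 1.99 RPKM at CT0 (log2 -1.32 ± 0.16, limma adjusted p = 0.00244).

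**Figure D1:**
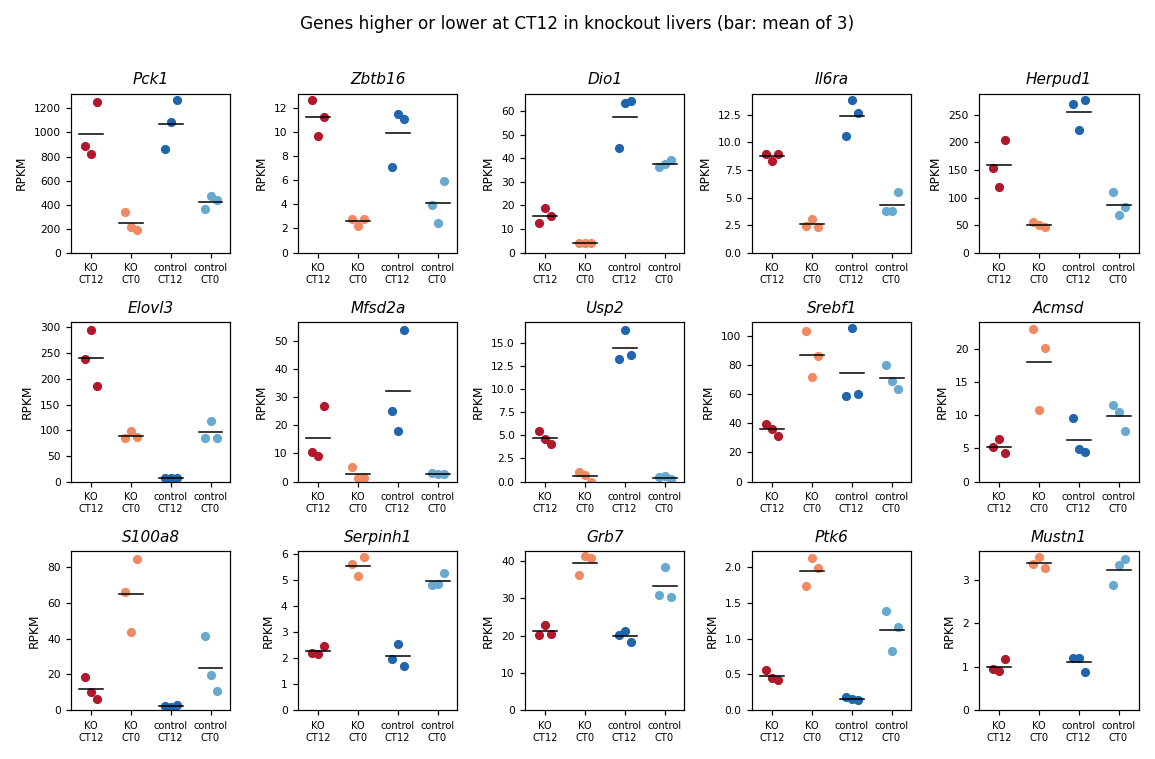
RPKM (vertical axes, linear and starting at 0) of 15 genes in each library of the Bmal1 experiment, with knockout (KO) CT12, knockout CT0, control CT12 and control CT0 from left to right; points are libraries and bars are means of 3. In each panel the 3 knockout CT12 points lie on 1 side of the 3 knockout CT0 points, and Elovl3 is high at CT12 in knockout and low at CT12 in control livers.

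Promoter sequences, from RefSeq on the GRCm38.p6 build, were searched in the 250 bases before the gene start for motifs of factors that carry daily signals. Of 35 called genes searched, namely those in the clock, glucocorticoid and heat shock lists and the 15 largest rises and falls, 30 had a window and 8 held at least 1 motif on either strand. The E-box CACGTG was found in 3 of the 30, Per1, Il6ra and Aqp8, and in 6.02% of all 32851 windows. The D-box TTATGCAA was found in 1 (Per1; 0.694% of all windows) and TTATGTAA in 0 (0.819%). The cyclic AMP response element TGACGTCA was found in 1 (Errfi1; 1.55%), and the heat shock pair GAANNTTC in 4 (Dio1, Il1r1, Mustn1 and 8430408G22Rik; 6.69%). The glucocorticoid response element core ACANNNTGT (5.84% of all windows) and the RORE TAGGTCA (2.23%) were found in 0. Matches on 1 chromosome were left out of all these gene counts, though not out of the shares of all windows. Genes were counted over all their windows, while the shares are of single windows. A match is a stretch of letters and not a measured binding site. The windows below show the E-boxes of genes that differed between times in livers labelled as lacking the E-box activator, with the D-box of Per1 and the cyclic AMP element of Errfi1; capitals mark the motif, and each is read 5′ to 3′ on the strand of the gene.
Per1, chr11:69098738-69098833, plus strand: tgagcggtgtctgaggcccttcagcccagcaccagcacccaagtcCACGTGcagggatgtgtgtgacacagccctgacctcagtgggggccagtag
Per1, chr11:69098880-69098948, plus strand: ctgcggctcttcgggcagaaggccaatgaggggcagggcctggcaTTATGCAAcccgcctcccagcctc
Il6ra, chr3:89913197-89913265, minus strand: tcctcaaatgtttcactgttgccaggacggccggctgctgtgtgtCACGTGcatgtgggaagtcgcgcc
Aqp8, chr7:123462174-123462269, plus strand: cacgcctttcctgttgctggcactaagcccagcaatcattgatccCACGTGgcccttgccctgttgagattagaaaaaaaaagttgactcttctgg
Errfi1, chr4:150854974-150855069, plus strand: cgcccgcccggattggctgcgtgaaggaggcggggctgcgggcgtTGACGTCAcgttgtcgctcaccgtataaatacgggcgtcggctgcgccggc

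Fewer genes of the clock circuit were called between times in knockout than in control livers. Of 12 genes known to be driven through E-boxes, 2 were called, Per1 and Dbp, both higher at CT12, beside 1.02% of all tested genes. In control livers 9 of the 12 were called higher, where 10.9% of all tested genes were called in either direction. In knockout livers 10 of the 12 were above 0, beside 5627 of 11494 tested genes. For 6 of the 12, all CT12 values lay above all CT0 values, beside 11.4% of all tested genes. The median log2 difference of the 12 was 0.46 in knockout and 2.14 in control livers, beside -0.0065 and -0.08 over all tested genes. Dbp, a transcription factor that binds D-boxes, stood in knockout livers at 3.29, 8.11 and 4.66 RPKM at CT12, against 1.51, 1.84 and 1.63 RPKM at CT0. Its knockout CT12 livers were above its CT0 livers without overlap (log2 1.36 ± 0.29, limma adjusted p = 0.0372). In control livers Dbp stood at 21.7, 33.4 and 17.3 RPKM at CT12, against 0.661, 1.25 and 1.18 RPKM at CT0, a far wider gap (log2 3.98 ± 0.29, limma adjusted p = 7.38e-06). Per1, a repressor of BMAL1 that also responds to glucocorticoids, stood in knockout livers at 7.97, 5.94 and 5.16 RPKM at CT12, against 3.52, 0.566 and 1.41 RPKM at CT0. Replicate 1 of the CT0 livers was the highest of its group and still below all CT12 livers (log2 1.75 ± 0.39, limma adjusted p = 0.0402).

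The difference between times was itself different between genotypes for 5 of the 12 E-box genes, beside 1.31% of all tested genes. The 5 were Tef, Per2, Per3, Gm129 and Dbp. Per2, a repressor of BMAL1, stood in knockout livers at 6.43, 6.08 and 4.17 RPKM at CT12, against 5.39, 3.38 and 3.11 RPKM at CT0. The knockout groups overlapped, and the difference did not pass the test (log2 0.46 ± 0.20, limma adjusted p = 0.244). In control livers Per2 stood at 8.95, 10.8 and 10.1 RPKM at CT12, against 1.496, 0.964 and 1.28 RPKM at CT0 (log2 2.59 ± 0.20, limma adjusted p = 1.22e-05). The knockout minus control value was log2 -2.13 ± 0.29, limma adjusted p = 0.00353. Tef, which encodes another D-box factor, stood in knockout livers at 21.4, 26.3 and 22.4 RPKM at CT12, against 19.6, 15.5 and 17.6 RPKM at CT0. Its CT12 livers were higher without overlap, short of the threshold (log2 0.40 ± 0.11, limma adjusted p = 0.083), where control livers gave 2.35 ± 0.11. Per3 gave 0.46 ± 0.19 in knockout and 3.13 ± 0.19 in control livers, and Gm129, which encodes the BMAL1 repressor CHRONO, gave 1.21 ± 0.41 and 4.85 ± 0.41 in that order. Nr1d1, encoding REV-ERBα, stood at 0.968, 1.61 and 1.56 RPKM at CT12, against 0.271, 0.31 and 0.801 RPKM at CT0 in knockout livers, higher at CT12 in each, but not called (log2 0.99 ± 0.37, limma adjusted p = 0.172).

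Among 5 clock genes known to be repressed by REV-ERB and activated by ROR receptors, 0 were called in knockout livers, beside 2.11% of all tested genes. Beside that share, a count of 0 among 5 genes says little. In control livers 4 were called, all lower at CT12, where 10.9% of all tested genes were called in either direction. Npas2, a partner of BMAL1, stood in knockout livers at 3.85, 3.19 and 3.37 RPKM at CT12, against 4.99, 4.35 and 4.82 RPKM at CT0. These CT12 values were below those at CT0 but did not pass the test (log2 -0.40 ± 0.13, limma adjusted p = 0.134). In control livers Npas2 was close to absent at CT12, at 0.0293, 0.0161 and 0.0176 RPKM at CT12, against 1.99, 2.68 and 1.94 RPKM at CT0 (log2 -2.37 ± 0.13, limma adjusted p = 8.86e-07). Clock gave 0.09 ± 0.16 in knockout and -0.94 ± 0.16 in control livers. The genotype difference was called for 3 of the 5, Arntl, Npas2 and Clock, beside 1.31% of all tested genes. Both called E-box genes rest on the pooled spread, since 0 of the 12 was called with the knockout libraries alone or without replicate 2 or 3 of the knockout CT0 livers, replicate 2 or 3 of the knockout CT12 livers, replicate 2 of the control CT0 livers or replicate 1 of the control CT12 livers.

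**Figure D2:**
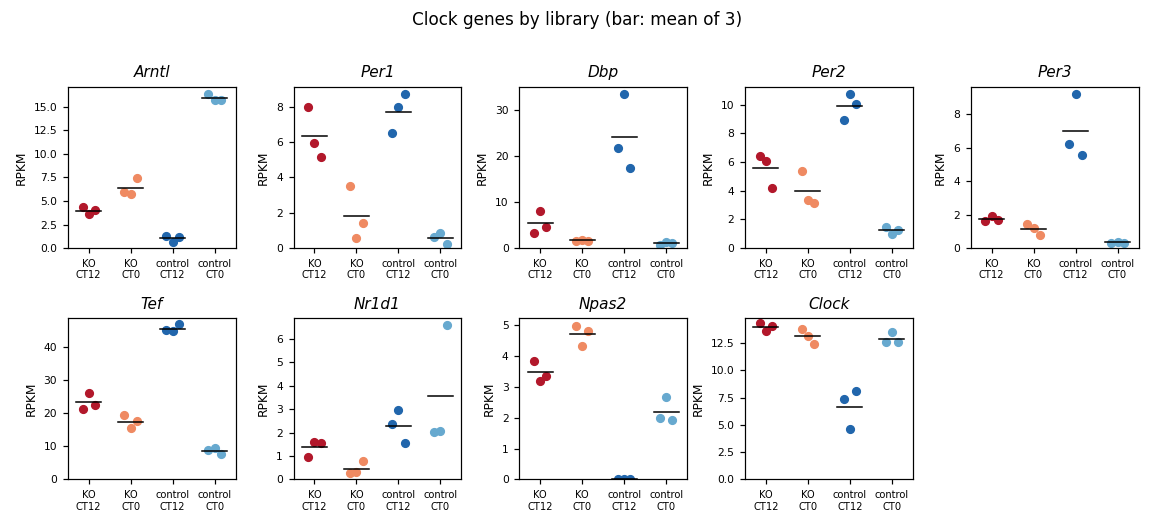
RPKM (vertical axes, linear and starting at 0) of 9 clock genes in each library of the Bmal1 experiment, with knockout (KO) CT12, knockout CT0, control CT12 and control CT0 from left to right; points are libraries and bars are means of 3. Control livers are far apart between times for Arntl, Per1, Dbp, Per2, Per3, Tef and Npas2, and of the genes drawn only Per1 and Dbp were called between times in knockout livers.

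Genes known to be induced by glucocorticoids, the adrenal hormones that rise in mice towards the active phase, had log2 differences above 0 in nearly every case in knockout livers. Of 19 such genes tested, 7 were called higher and 0 lower, beside 1.02% of all tested genes called higher. The log2 difference was above 0 for 18 of the 19, beside 5627 of 11494 tested genes. Without replicate 1 of the knockout CT12 livers it was above 0 for 16 of the 19. The median was 1.11 in knockout and 0.78 in control livers. In control livers 8 of the 19 were called higher, beside 386 of 11494 tested genes, and 1 lower. The knockout median was 0.80 without replicate 3 and 1.51 without replicate 2 of the knockout CT12 livers. Like the other lists, this one was chosen with earlier results of these data known. For 10 of the 19, all knockout CT12 values lay above all CT0 values, beside 11.4% of all tested genes. The 7 were Cdkn1a, Pck1, Zbtb16, Per1, Errfi1, Tsc22d3 and Klf9. Pck1, the rate-limiting enzyme of gluconeogenesis, stood in knockout livers at 891, 821 and 1252 RPKM at CT12, against 337, 209 and 188 RPKM at CT0. All CT12 livers were far above all CT0 livers (log2 2.03 ± 0.23, limma adjusted p = 0.002). Cdkn1a, which encodes the cell cycle inhibitor p21, stood at 12.8, 10.2 and 14.3 RPKM at CT12, against 4.71, 1.54 and 1.32 RPKM at CT0, with CT0 replicate 1 above its group mates and below every CT12 liver (log2 2.26 ± 0.41, limma adjusted p = 0.021).

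Errfi1, an inhibitor of the EGF receptor, stood in knockout livers at 285, 266 and 249 RPKM at CT12, against 159.6, 90.6 and 75.6 RPKM at CT0 (log2 1.37 ± 0.25, limma adjusted p = 0.0213). Tsc22d3, which encodes the glucocorticoid-induced leucine zipper protein, stood at 100.5, 92.3 and 122 RPKM at CT12, against 73.6, 36.7 and 41.0 RPKM at CT0. Both genes had CT12 values wholly above CT0 values, and for Tsc22d3 the test gave log2 1.11 ± 0.23, limma adjusted p = 0.0344. Klf9, a transcription factor known to respond to glucocorticoids and thyroid hormone, stood at 18.2, 18.1 and 18.2 RPKM at CT12, against 9.42, 11.6 and 11.7 RPKM at CT0, with CT12 values that were almost identical (log2 0.72 ± 0.10, limma adjusted p = 0.00598). Members with no call included Fkbp5, a co-chaperone of the glucocorticoid receptor (log2 1.19 ± 0.31, limma adjusted p = 0.0678), Angptl4, an inhibitor of lipoprotein lipase (log2 1.73 ± 0.43, limma adjusted p = 0.0608), and Sgk1, a kinase (log2 0.94 ± 0.26, limma adjusted p = 0.0894). Igfbp1, an insulin-like growth factor binding protein, gave log2 -1.31 ± 0.43, limma adjusted p = 0.129 and was the member below 0. The number called fell to 3 without replicate 3 of the knockout CT0 livers or replicate 1 of the knockout CT12 livers, and to 2, Pck1 and Zbtb16, with the knockout libraries alone.

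**Figure D3:**
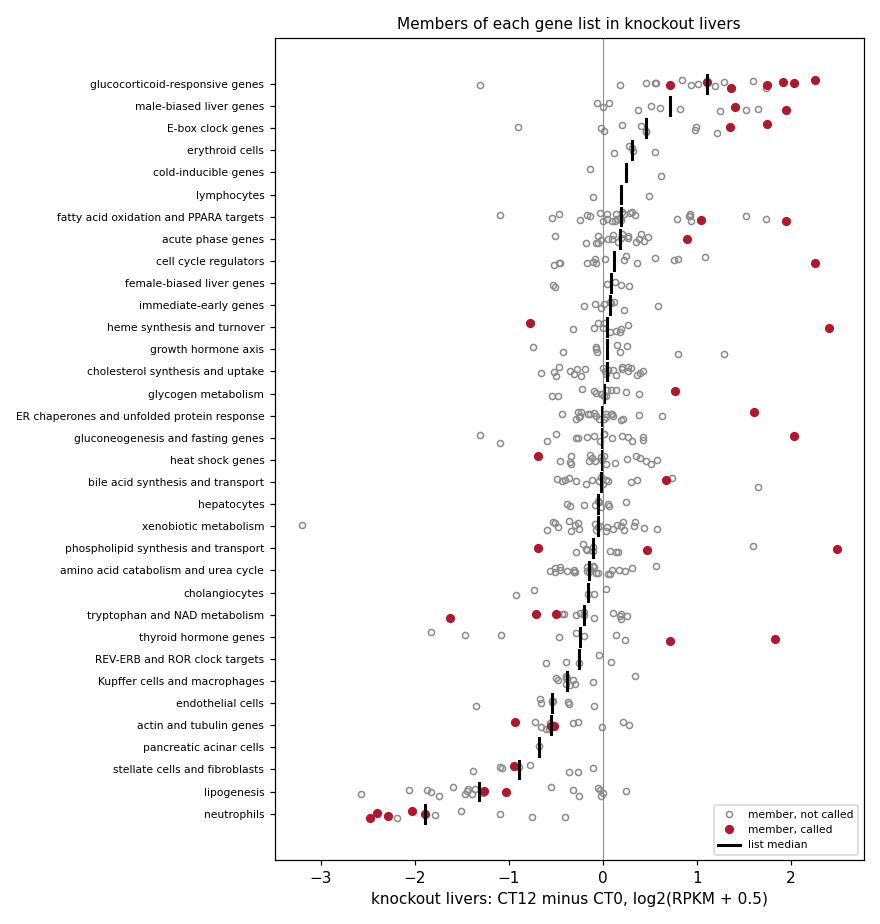
Log2 difference (CT12 minus CT0, on log2(RPKM + 0.5)) in knockout livers of every tested member of each gene list, with lists ordered by their median (black tick); red points were called and open grey points were not. Glucocorticoid-responsive genes lie highest, with a median of 1.11 and 7 called members, and neutrophil markers lowest, with a median of -1.90 and 5 called members.

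Genes of fuel and lipid handling were called singly and not as whole pathways. Among 30 genes of fatty acid oxidation and PPARA targets, 2 were called higher, Cpt1a and Cyp4a12b, beside 1.02% of all genes, and the median was 0.19 beside -0.0065 for all genes. Replicate 3 of the knockout CT12 livers was the highest of its group for 26 of the 30 (86.7%), beside 42% of all tested genes, and without it the median was 0.05, with 11 of the 30 below 0. Cyp4a12b was not called without replicate 1 of the knockout CT0 livers or replicate 1 or 2 of the knockout CT12 livers, and neither gene was called with the knockout libraries alone. Cpt1a, which admits long fatty acids to mitochondria, stood in knockout livers at 63.7, 72.3 and 85.1 RPKM at CT12, against 29.9, 42.6 and 34.8 RPKM at CT0. Its log2 difference was 1.04 ± 0.15 in knockout livers (limma adjusted p = 0.00683) and 0.86 ± 0.15 in control livers. Cyp4a12b, a fatty acid hydroxylase whose reads may be shared with the near-identical Cyp4a12a, stood at 10.8, 21.3 and 10.2 RPKM at CT12, against 2.41, 2.32 and 5.14 RPKM at CT0 (log2 1.95 ± 0.35, limma adjusted p = 0.0213). Plin4, a lipid droplet coat protein, stood at 1.80, 1.71 and 2.70 RPKM at CT12, against 0.746, 0.415 and 0.152 RPKM at CT0, low in level and higher in every CT12 liver (log2 1.48 ± 0.25, limma adjusted p = 0.0138).

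Of 13 phospholipid genes, Mfsd2a and the ethanolamine kinase Etnk2 were called higher and the choline kinase Chka lower, beside 1.02% and 1.1% of all genes. Neither rise was called without replicate 2 of the control CT0 livers, replicate 2 or 3 of the knockout CT0 livers or any replicate of the knockout CT12 livers. Chka was not called without replicate 1 or 3 of the knockout CT0 livers or replicate 2 or 3 of the knockout CT12 livers, and 0 of the 3 calls was made with the knockout libraries alone. Mfsd2a, a carrier of lysophosphatidylcholine, had the largest called rise, at 10.4, 9.23 and 26.9 RPKM at CT12, against 5.18, 1.27 and 1.14 RPKM at CT0 in knockout livers. Replicate 3 at CT12 stood well above its mates, and replicate 1 at CT0 above its own (log2 2.49 ± 0.52, limma adjusted p = 0.0329). Chka stood at 38.2, 26.2 and 30.9 RPKM at CT12, against 51.6, 45.6 and 56.0 RPKM at CT0 (log2 -0.69 ± 0.14, limma adjusted p = 0.0333), a smaller fall than in control livers, where it was -2.66 ± 0.14; the difference between genotypes was called (log2 1.97 ± 0.20, limma adjusted p = 0.000508). Abcb4, the canalicular exporter of phosphatidylcholine, was the 1 called of 17 bile acid and transport genes, at 73.8, 99.8 and 107 RPKM at CT12, against 55.4, 62.7 and 55.7 RPKM at CT0 (log2 0.67 ± 0.13, limma adjusted p = 0.0255). It was not called without replicate 1 or 3 of the knockout CT0 livers or replicate 2 or 3 of the knockout CT12 livers. The share of all tested genes called higher was 1.02%.

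Alas1, the rate-limiting enzyme of heme synthesis, stood in knockout livers at 386, 225 and 183 RPKM at CT12, against 81.9, 44.8 and 28.1 RPKM at CT0. All CT12 livers were above all CT0 livers, and the rise was log2 2.41 ± 0.39, limma adjusted p = 0.0129, beside 3.97 ± 0.39 in control livers. Hmox1, which breaks heme down, was lower at CT12, at 8.73, 8.83 and 9.35 RPKM at CT12, against 18.8, 13.4 and 15.2 RPKM at CT0 (log2 -0.77 ± 0.14, limma adjusted p = 0.0221). These were the 2 called of 12 heme genes, beside 1.02% of all tested genes called higher and 1.1% called lower. Alas1 was not called without replicate 1 of the knockout CT12 livers, nor Hmox1 without replicate 1 or 3 of the knockout CT0 livers or replicate 1 or 2 of the knockout CT12 livers. Of 15 genes of tryptophan and NAD metabolism, 3 were called lower, Acmsd, Ido2 and Aspdh, beside 1.1% of all genes. Acmsd, which diverts tryptophan breakdown away from NAD, stood at 5.24, 6.36 and 4.26 RPKM at CT12, against 23.1, 10.9 and 20.2 RPKM at CT0 (log2 -1.63 ± 0.31, limma adjusted p = 0.024). Ido2, a tryptophan-cleaving dioxygenase, stood at 12.2, 10.6 and 12.0 RPKM at CT12, against 22.2, 17.0 and 19.0 RPKM at CT0 (log2 -0.71 ± 0.13, limma adjusted p = 0.0193). Neither gene's groups overlapped, and 0 of these 3 calls was made with the knockout libraries alone or without replicate 3 of the knockout CT0 livers or replicate 1 of the knockout CT12 livers.

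Single genes were also called among those of glycogen (Stbd1, a glycogen-binding protein, log2 0.77 ± 0.14, limma adjusted p = 0.0209), acute phase proteins (Saa4, a constitutive serum amyloid, log2 0.90 ± 0.17, limma adjusted p = 0.0248) and heat shock (Hspa4l, an HSP110-family chaperone, log2 -0.69 ± 0.15, limma adjusted p = 0.0386). Replicate 1 of the knockout CT0 livers was the highest of its group for all 20 heat shock genes tested, beside 44.3% of all tested genes, and Hspa4l was not called without it or without any of 8 other single libraries. Stbd1 was not called without replicate 3 of the knockout CT0 livers or replicate 1 or 3 of the knockout CT12 livers, and Saa4 without replicate 1 or 3 of the knockout CT0 livers or replicate 1 or 2 of the knockout CT12 livers. Lists with 0 called members were those of cholesterol synthesis (24 tested), amino acid breakdown and the urea cycle (24), xenobiotic metabolism (25), immediate-early genes (9), the growth hormone axis (10), female-biased genes (6) and cold-inducible genes (2). Their medians lay between -0.14 and 0.24, and leaving out single libraries moved all of these across 0 except that of amino acid breakdown. The gluconeogenesis and fasting list had 1 of 18 called (Pck1, median -0.01), the endoplasmic reticulum chaperone list 1 of 22 (Herpud1, -0.01), the cell cycle list 1 of 16 (Cdkn1a, 0.12), the thyroid hormone list 2 of 10 (Dio1 and Klf9, -0.24) and the male-biased list 2 of 12 (Cyp4a12b and Elovl3, 0.71), all of them higher at CT12. Beside these single calls, 1.02% of all tested genes were called higher and 1.1% lower. The median of the male-biased list was 0.47 without replicate 2 of the knockout CT12 livers, and those of the gluconeogenesis and chaperone lists crossed 0 without single libraries. Usp2, a deubiquitinase, stood at 5.41, 4.57 and 4.09 RPKM at CT12, against 0.993, 0.662 and 0 RPKM at CT0 (log2 2.44 ± 0.32, limma adjusted p = 0.00452). Its rise in control livers was 4.03 ± 0.32, and the genotype difference was not called (log2 -1.59 ± 0.45, limma adjusted p = 0.138). Ccrn4l, which encodes the rhythmic phosphatase nocturnin, stood at 3.15, 2.63 and 2.201 RPKM at CT12, against 1.55, 0.258 and 0.262 RPKM at CT0 (log2 1.57 ± 0.31, limma adjusted p = 0.0292), and the interleukin-1 receptor gene Il1r1 at 21.7, 19.6 and 21.0 RPKM at CT12, against 4.53, 9.93 and 7.12 RPKM at CT0 (log2 1.53 ± 0.23, limma adjusted p = 0.0102). Aqp8, a water channel, was lower at CT12 in all livers, at 42.7, 34.3 and 53.4 RPKM at CT12, against 233, 95.9 and 116 RPKM at CT0 (log2 -1.67 ± 0.31, limma adjusted p = 0.024). Mcm10, a replication factor, gave log2 1.62 ± 0.30, limma adjusted p = 0.0213, and the activin antagonist Fst gave log2 -1.28 ± 0.28, limma adjusted p = 0.0386. Of these genes Usp2 and Il1r1 were called without each library in turn, and Ccrn4l, Aqp8, Mcm10 and Fst were not called without replicate 3 of the knockout CT0 livers or replicate 1 of the knockout CT12 livers, among others.

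Lipogenic genes had log2 differences below 0 in knockout livers in nearly every case, with sizes that depended on 1 library. Of 22 genes tested, 21 were below 0 and 11 had CT12 values below all CT0 values, beside 5867 of 11494 and 11.4% of all tested genes. Their median was -1.31 in knockout livers and -0.11 in control livers. Only Srebf1 and Mlxipl, which encode the lipogenic transcription factors SREBP-1 and ChREBP, were called, both lower, beside 1.1% of all tested genes. Srebf1 stood at 39.7, 36.3 and 31.4 RPKM at CT12, against 104, 71.6 and 86.2 RPKM at CT0 in knockout livers. Its groups were well apart (log2 -1.26 ± 0.21, limma adjusted p = 0.0138). With the knockout libraries alone its adjusted p by limma was 0.034, and without replicate 3 of the knockout CT0 livers it was 0.0529. In control livers Srebf1 gave 0.03 ± 0.21, and the genotype difference was not called (log2 -1.29 ± 0.29, limma adjusted p = 0.0615). Mlxipl stood at 29.4, 22.6 and 25.0 RPKM at CT12, against 83.7, 40.6 and 43.1 RPKM at CT0 (log2 -1.03 ± 0.23, limma adjusted p = 0.0411). It was not called with the knockout libraries alone or with a block on replicate number. Nor was it called without replicate 3 of the knockout CT0 livers or any replicate of the knockout CT12 livers, among others.

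Fasn, which encodes fatty acid synthase, stood in knockout livers at 60.9, 44.8 and 34.6 RPKM at CT12, against 536, 89.0 and 100.0 RPKM at CT0. Replicate 1 of the CT0 livers was 5.67 times the mean of the other CT0 livers, and the difference was not called (log2 -1.88 ± 0.61, limma adjusted p = 0.123). Elovl6, a fatty acid elongase, stood at 7.56, 5.15 and 6.79 RPKM at CT12, against 185, 16.5 and 21.8 RPKM at CT0 (log2 -2.58 ± 0.71, limma adjusted p = 0.0864). Thrsp, a regulator of lipogenesis, stood at 105, 45.1 and 46.8 RPKM at CT12, against 912, 82.9 and 133 RPKM at CT0, with the same replicate far above the rest. Over the 22 genes that replicate was between 0.885 and 14.4 times the mean of its mates, at least 2 times for 14 genes and at least 5 times for 6. It was the highest of the 3 CT0 livers for 19 of the 22 (86.4%), beside 44.3% of all tested genes. Without it the median of the list was -0.67 and 17 of the 22 were below 0, and Srebf1 remained at -1.13. The state of that animal is not described, and its part in the result was not tested beyond leaving it out. The number called ranged from 0 without replicate 3 to 7 without replicate 2 of the knockout CT0 livers.

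**Figure D4:**
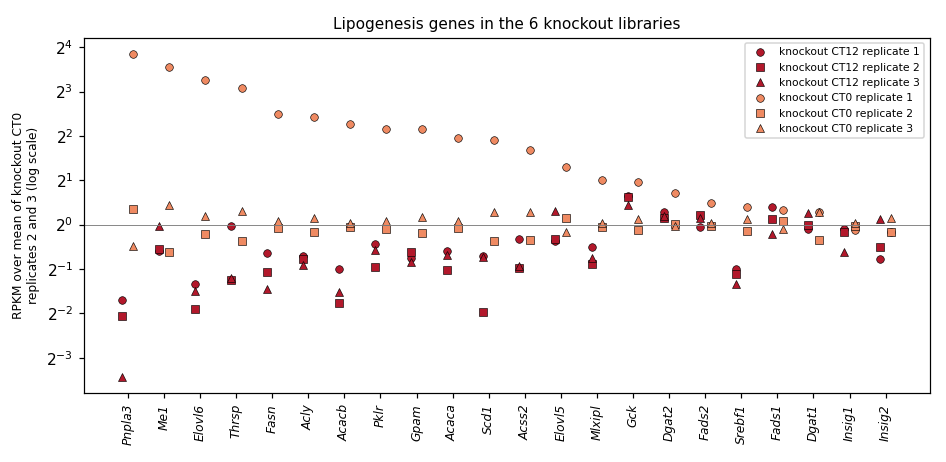
RPKM of 22 lipogenesis genes in the 6 knockout libraries, each divided by the gene's mean in replicates 2 and 3 of the CT0 livers (vertical axis, log scale), with CT12 libraries in dark red and CT0 libraries in orange. Replicate 1 at CT0 is at least 5 times that mean for 6 genes, and most CT12 points lie below 1.

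Several transcripts of neutrophils and of structural proteins were lower at CT12. Of 11 tested neutrophil markers all were below 0, 9 had CT12 values below all CT0 values, beside 11.4% of all tested genes, and 5 were called, beside 1.1%. Their median was -1.90 in knockout and -1.78 in control livers. The markers varied together between animals. Replicate 1 of the knockout CT12 livers was the highest of its group for all 11, beside 24.3% of all tested genes. Replicate 3 of the knockout CT0 livers was the highest for 10, beside 26.9%, and replicate 2 the lowest for 10. The knockout median was -1.52 without that replicate 3 and -2.33 without that replicate 2. S100a8, a subunit of calprotectin, stood in knockout livers at 18.8, 10.0 and 6.53 RPKM at CT12, against 65.9, 43.7 and 84.3 RPKM at CT0 (log2 -2.48 ± 0.45, limma adjusted p = 0.0208). S100a9, its partner, stood at 17.3, 13.9 and 9.005 RPKM at CT12, against 73.1, 40.5 and 93.5 RPKM at CT0 (log2 -2.29 ± 0.40, limma adjusted p = 0.0177). All CT12 livers were below all CT0 livers for both. Camp, a granule peptide, stood at 2.192, 1.76 and 0.609 RPKM at CT12, against 10.7, 6.89 and 11.5 RPKM at CT0 (log2 -2.40 ± 0.53, limma adjusted p = 0.0412), Ltf, lactoferrin, gave log2 -2.03 ± 0.46, limma adjusted p = 0.0475, and Mpo, myeloperoxidase, gave log2 -1.90 ± 0.43, limma adjusted p = 0.0444. The neutrophil surface gene Cd177, not in the list, gave log2 -1.60 ± 0.30, limma adjusted p = 0.0225. The markers summed to between 51.3 and 139 RPKM at CT12 and between 148 and 312 RPKM at CT0. In whole liver, fewer cells of a type and less RNA per cell cannot be told apart. The number called fell to 0 without replicate 3 of the knockout CT0 livers, without replicate 2 of the knockout CT12 livers, or with the knockout libraries alone.

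Markers of other cell types had fewer calls. Hepatocyte markers had 0 of 10 called and summed to between 38850 and 42390 RPKM at CT12 and between 41690 and 48900 RPKM at CT0, so the labelled tissue was borne out by its markers in each library. Stellate cell and fibroblast markers were all 9 below 0 with a median of -0.89, and 1 was called, the PDGF receptor gene Pdgfrb, at 1.64, 2.03 and 1.61 RPKM at CT12, against 3.59, 3.39 and 4.66 RPKM at CT0 (log2 -0.95 ± 0.17, limma adjusted p = 0.0177). It was not called without replicate 3 of the knockout CT0 livers or replicate 1 of the knockout CT12 livers. The share of all tested genes called lower was 1.1%. The stellate markers summed to between 124 and 158 RPKM at CT12 and between 173 and 210 RPKM at CT0. Endothelial markers were all 9 below 0 with a median of -0.54 and 0 called. Replicate 1 of the knockout CT12 livers was the lowest of its group for all 9, and without it the median was -0.31, with 8 of the 9 below 0. Kupffer cell markers had 0 of 11 called and a median of -0.38. For all 11, replicate 1 at CT12 and replicate 3 at CT0 were the lowest of their knockout groups, and the median was -0.17 without that CT12 library and -0.24 without replicate 1 at CT0. Other lists had few members, erythroid markers 0 of 5 with a median of 0.31, and cholangiocyte markers 0 of 5 with a median of -0.16. The lymphocyte and pancreatic acinar lists had 2 and 1 members tested and 0 called. None of the 5 adipocyte markers reached the level for testing.

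Of 13 actin and tubulin genes, 3 were called lower, Tuba1a, Tuba4a and Actb, with a median of -0.55 in knockout livers and of -0.88 in control livers, where 9 were called lower. Of all tested genes 1.1% were called lower in knockout livers. In control livers 865 of 11494 were called lower, or 628 with TMM factors. Replicate 1 of the knockout CT0 livers was the highest of its group for 9 of the 13, and without it the median was -0.34. None of the 13 was called without replicate 1 or 3 of the knockout CT12 livers. Actb, which encodes cytoplasmic β-actin, stood in knockout livers at 535, 653 and 589 RPKM at CT12, against 806, 806 and 931 RPKM at CT0 (log2 -0.52 ± 0.10, limma adjusted p = 0.0248). The α-tubulin gene Tuba4a stood at 40.9, 42.6 and 39.3 RPKM at CT12, against 70.1, 57.2 and 54.6 RPKM at CT0 (log2 -0.55 ± 0.11, limma adjusted p = 0.0255). Tagln, a smooth muscle actin-binding protein gene, stood at 1.049, 0.619 and 1.02 RPKM at CT12, against 2.37, 2.44 and 4.90 RPKM at CT0 (log2 -1.37 ± 0.29, limma adjusted p = 0.0362). In the same livers 1 of the 9 stellate and 5 of the 11 neutrophil markers were called lower, and the part of those cells in the values of these genes and of the collagen chaperone Serpinh1 was not tested. With the knockout libraries alone, 0 of the 13 was called.

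Control livers showed more differences between times than knockout livers. They had 1251 called genes, 10.9% of those tested. Of the 243 genes called in knockout livers, 141 were also called in control livers, 58% of the knockout calls and 11.3% of the control calls. Both were higher for 55, both lower for 83, and the signs were opposite for 3. Counted without a call in control livers, 218 of the 243 had the same sign there. The share of all tested genes with the same sign in both genotypes was not computed. In control livers 37.9% of all tested genes were higher at CT12, so shared falls had a larger background than shared rises. These comparisons share no libraries, but their p-values rest on 1 estimate of each gene's spread.

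The difference of time differed between genotypes for 151 genes, 1.31% of those tested, and 16 of these were called in knockout livers. Of the 16, 9 had opposite signs in the genotypes, 6 were smaller in knockout than in control livers with the same sign, and 1 was larger. Elovl3, a fatty acid elongase known for its rhythm and male bias in liver, had the largest genotype difference among the named genes. It stood in knockout livers at 239, 295 and 185 RPKM at CT12, against 84.0, 97.6 and 85.9 RPKM at CT0. It rose at CT12 in knockout livers (log2 1.40 ± 0.16, limma adjusted p = 0.00238) and fell in control livers, where it stood at 7.18, 7.31 and 7.13 RPKM at CT12, against 84.5, 118 and 84.6 RPKM at CT0 (log2 -3.62 ± 0.16, limma adjusted p = 2.02e-07). The knockout minus control value was log2 5.02 ± 0.23, limma adjusted p = 6.55e-07.

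Cdkn1a rose in knockout livers, as given above, and gave log2 -0.98 ± 0.41, limma adjusted p = 0.15 in control livers, with a genotype difference of log2 3.23 ± 0.58, limma adjusted p = 0.0187. Inmt, a methyltransferase, stood in knockout livers at 244, 235 and 297 RPKM at CT12, against 427, 420.0 and 338 RPKM at CT0 (log2 -0.61 ± 0.12, limma adjusted p = 0.0258). Control livers of Inmt ran the other way, at 769, 744 and 643 RPKM at CT12, against 402, 418 and 432 RPKM at CT0 (log2 0.78 ± 0.12, limma adjusted p = 0.00161). Uox, the urate-degrading enzyme, gave -0.73 ± 0.13 in knockout and 0.30 ± 0.13 in control livers, and the genotype difference was -1.03. Cars, a cysteinyl-tRNA synthetase, gave 0.71 ± 0.16 and -0.47 ± 0.16 in knockout and control livers, and Klf9 gave 0.72 ± 0.10 and -0.02 ± 0.10. The other genes of opposite sign were Dirc2, Spg20 and Rabggtb. Of the genes of opposite sign, 3 were called in both genotypes, and the control value of Klf9 was within its standard error of 0. In knockout livers only Elovl3 and Klf9 of them stayed called without each library in turn. With the knockout libraries alone, Elovl3 was the only one called. Dio1 was the 1 gene with the same sign and a larger difference in knockout livers (1.83 ± 0.16) than in control livers (0.58 ± 0.16).

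**Figure D5:**
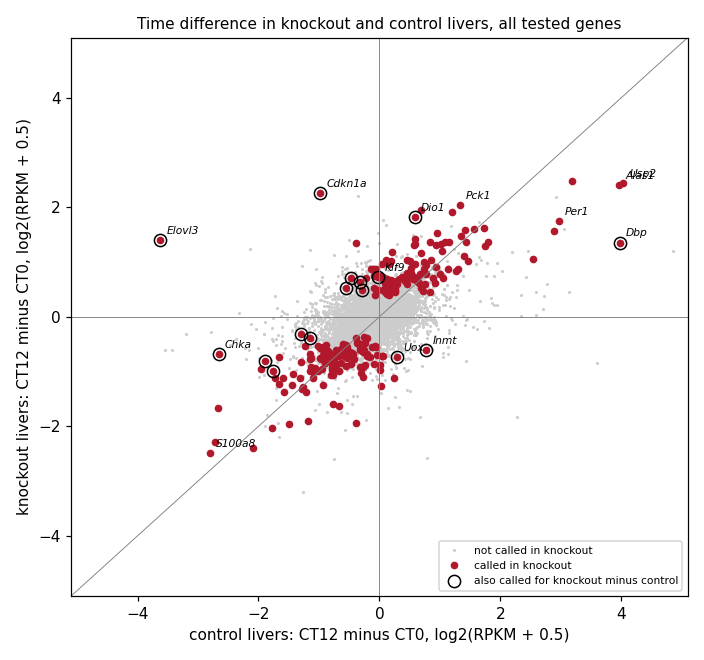
Log2 difference between times (CT12 minus CT0) in knockout livers (vertical) against control livers (horizontal), 1 point per tested gene; red points are the 243 genes called in knockout livers, and circles mark the 16 whose difference also differed between genotypes. Most red points share their sign in control livers (218 of 243), and Elovl3 and Cdkn1a stand apart at the upper left.

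In the Nr1d1 experiment, which had 2 livers a group, the libraries of replicate 2 are labelled as paired-end and those of replicate 1 are not. The replicates stood far apart, with a median standard deviation of a gene within a group of 1.18 to 1.4 on the log2 scale, beside 0.162 and 0.164 in the Bmal1 knockout groups. The difference between the replicates was shared by the groups, with correlations across genes of 0.811 to 0.875, and read layout and animals cannot be told apart. With that spread limma called 0 genes between CT12 and CT0 in the Nr1d1 knockouts, with 15 at an unadjusted p under 0.05, and 0 in their controls, with 18. These counts say little about time of day, and with replicate number as a block they were 8 in knockouts and 52 in controls.

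Signs were therefore counted within each replicate number, a choice made after the data were seen, and without a test. Of the 117 genes called higher in Bmal1 knockout livers, 112 were higher at CT12 in the Nr1d1 knockouts of replicate 1, where 86% of all tested genes were higher, and 71 in those of replicate 2, where 54.5% were. In the Nr1d1 controls 97 were higher in replicate 1 (77.7% of all tested genes) and 88 in replicate 2 (45%). Of the 126 called lower, 48 and 45 were lower in the Nr1d1 knockouts of replicates 1 and 2, and 71 and 104 in the controls of replicates 1 and 2. With 1 library per group and replicate number, no difference between the Nr1d1 genotypes is drawn from these counts.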

How the data were processed

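RNA was extracted with Trizol and libraries were made with a TruSeq RNA kit, per the labels' protocols. The values were deposited by the authors as RPKM per Ensembl transcript and library; TopHat2, Bowtie and bedtools 2.19.1 with the build mm9 appear in the submitters' processing notes. The strand setting, the annotation release and which reads made up the depth are not stated. The 4C files of the series hold a deposited count of reads per fragment and were read for their totals only.

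Tables were joined on the transcript, and 1 transcript was kept per symbol, that of highest mean log2(RPKM + 0.5) in the 6 knockout libraries. Genes with a mean of at least 0.5 RPKM there were fitted with limma 3.58.1 in R 4.3.3 (4 group means, 12 libraries, mean trend, two-sided, Benjamini-Hochberg adjustment over all tested genes). Contrasts were CT12 minus CT0 in each genotype and their difference. Whole reads behind RPKM were recovered, within a tolerance of 0.05 and up to a factor that all libraries of a transcript share, for 88.4% of gene transcripts above 0, and tested with edgeR 4.0.16. The limma fit of the 12 libraries, for the contrast in each genotype, and the edgeR test in knockout livers were tried on simulated data. The genotype difference, the blocked fits, the fits of fewer libraries and the Nr1d1 fits were not.

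The members, the 25 pathway and 10 marker lists and the tests were chosen with earlier results of these data known. Of 474 listed genes, 472 matched a symbol and 430 were tested; lists overlap. Named genes were Arntl, the 15 largest rises and falls among called genes without overlap and with a mean of at least 1 RPKM in either group, all listed clock genes, up to 4 called genes per list (with fewer than 2 called, the 2 of highest level), and up to 10 called genes of opposite sign in control livers. Errfi1, Tsc22d3, Fkbp5, Angptl4, Sgk1, Igfbp1, Fasn, Elovl6, Thrsp and the genes called in every fit were named after their values were seen. Some gene-level results are not reported here.

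Libraries of the same number hardly deviated together across knockout groups (correlations across genes of 0.062, -0.0034 and 0.0034). Across pairs of all Bmal1 groups, controls included, such correlations reached 0.0622 for replicate 1, 0.124 for replicate 2 and 0.105 for replicate 3. At the lowest they were -0.0423, -0.0494 and -0.0524 in that order. The numbers were not taken as pairs. In the Nr1d1 experiment the number goes with a read layout given in the labels. Alternatives were other pseudocounts, filters, scalings, transcript sums, the edgeR test, a block on replicate number, fits of the compared groups alone and fits without each library.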

Additional observations from a re-analysis of the deposited data

Results flagged for a closer look

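For 19 of the named genes the difference between CT12 and CT0 differed between knockout and control livers by the test of that difference itself, and the values here are knockout minus control on the log2 scale. The difference was higher in knockout livers for Elovl3 (5.02), Cdkn1a (3.23), Arntl (2.82), Chka (1.97), Npas2 (1.97), Dio1 (1.25), Cars (1.19), Dirc2 (1.08), Clock (1.03), Spg20 (0.96), Rabggtb (0.78) and Klf9 (0.74). It was lower in knockout livers for Gm129 (-3.64), Per3 (-2.67), Dbp (-2.62), Per2 (-2.13), Tef (-1.94), Inmt (-1.39) and Uox (-1.03). No test for an outlying sample was run in these groups of 3 libraries.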

How the results depend on the processing

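The count of called genes in knockout livers, 243, was 382 by edgeR on recovered reads (180 higher, 202 lower, 223 shared), 22 with the knockout libraries alone and 52 to 238 without single libraries. Blocking on replicate number gave 203, and other scalings, filters, pseudocounts and transcript sums gave 171 to 298. In control livers, 1251 calls became 654 to 1389 without single libraries, and the 386 higher and 865 lower became 617 and 628 with TMM factors. The genotype difference, 151 calls with 112 higher and 39 lower, became 80 to 141 without single libraries and 127 with the block. With TMM factors it split 89 and 61. In the Nr1d1 experiment the block gave 8 calls in knockouts and 52 in controls, and leaving out single libraries 0 to 2 in each. Of 54 called genes that the naming rule chose, 13 remained called without each library in turn: Cpt1a, Dio1, Elovl3, Herpud1, Il1r1, Il6ra, Klf9, Mustn1, Pck1, Plin4, Ptk6, Usp2 and Zbtb16. Over 23 alternatives 0 of these 54 genes reversed direction. Their knockout values at CT12 and CT0 did not overlap, so leaving out a library or changing the pseudocount could not have reversed them. For the rest of the 111 genes of that rule, a change of sign without a call was not counted. With TMM factors or quantile normalization, the medians of the glucocorticoid, lipogenesis, actin and tubulin, stellate and neutrophil lists in knockout livers moved by less than 0.1. Genes under a mean of 0.5 RPKM were not tested.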
